A study of Mus musculus with 8 samples.

Results

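Haem metabolism and iron handling were followed in the kidney of mice homozygous for mutant Pus1, through 36 genes listed by symbol. Pus1 encodes a pseudouridine synthase that modifies tRNA and other RNAs, and its loss in people is linked to a sideroblastic anaemia, in which iron collects in the mitochondria of red cell precursors. A listed gene was taken as measured where a probe named for it was well above background in at least 4 of the 8 samples, and its brightest such probe was used. By that rule 35 of the 36 genes were measured, among 22122 genes and unnamed probes in all, of which 14284 carried a symbol. The list was drawn up by gene function and not by the values, although with earlier results of these data known.

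The mice fell into 4 groups, all aged 14 to 16 weeks and of C57BL/6J background after 5 generations of backcrossing, and their RNA was read on Agilent microarrays with a red and a green channel. They were 2 male and 2 female homozygous Pus1 mutants, and 2 male and 2 female wild-type mice. Total RNA came from cross sections through the whole frozen kidney. A mutant was hybridised together with a wild type of its own sex, males on arrays 3 and 4 and females on arrays 1 and 2. On arrays 1 and 3 the mutant was labelled with Cy5, and on arrays 2 and 4 with Cy3. The labels call the samples of a group individuals and biological replicates. They do not say which part of Pus1 is altered. Sex, position on the slide and replicate number changed together and cannot be told apart, so each difference between the sexes below is also one between slide positions.

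Levels are normalized log2 intensities, on which 1 unit is a 2-fold difference, and they were compared between mice for the same probe only. Pus1 itself had log2 intensities of 7.46, 7.49, 6.92 and 7.36 in mutants 1 to 4, against 10.39, 10.34, 10 and 10.34 in wild types 1 to 4. Every mutant level lay below every wild-type level, as the labels would have it, although the place of the probe relative to the mutation is unknown. All 15 of 15 kidney-defining genes were measured. Markers of fat, of the urothelium that lines the renal pelvis, of red cells and of macrophages were measured too. So were 4 of 11 adrenal markers. The sections may thus also have held other tissue, although a measured marker does not show this by itself. In such bulk RNA fewer cells of a type and less RNA per cell cannot be told apart.

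Haem is made from glycine and succinyl-CoA in a chain of enzymes that starts and ends in mitochondria, and it is broken down by haem oxygenase to biliverdin, carbon monoxide and iron. Iron reaches cells bound to transferrin through transferrin receptors, is reduced and moved out of endosomes, is used in mitochondria for haem and iron-sulfur clusters, is stored in ferritin, and leaves through ferroportin, whose amount hepcidin controls. The kidney filters and takes back iron and transferrin in its proximal tubules and is itself a site of haem use in mitochondria-rich tubule cells.

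Promoters are shown for 3 of these genes because their values carry the results that follow. Cpox and Steap3 were the members with the largest differences between the sexes in each direction among those well above background in all 8 samples, and Tfr2 had the largest difference in genotype ratio between male and female pairs. Each is the 250 bases before a transcript start in a table of RefSeq promoters, build GRCm38.p6, written 5′ to 3′ on the gene's strand, with capitals on matches to the motifs searched. Where the table listed several starts, 4 for Steap3 and 3 for Tfr2, the outermost was used. For both genes the annotated span begins farther out than that start, so that the last 18 bases of the Tfr2 window and the last base of the Steap3 window lie inside it. The table of promoters held 26 of the 36 listed genes.
Cpox, chr16:58669958-58670207, plus strand: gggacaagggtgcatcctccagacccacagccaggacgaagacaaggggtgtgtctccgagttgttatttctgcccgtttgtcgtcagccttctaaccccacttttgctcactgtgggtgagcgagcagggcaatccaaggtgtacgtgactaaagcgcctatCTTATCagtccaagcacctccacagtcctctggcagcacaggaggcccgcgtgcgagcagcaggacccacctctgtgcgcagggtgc
Steap3, chr1:120271081-120271330, minus strand: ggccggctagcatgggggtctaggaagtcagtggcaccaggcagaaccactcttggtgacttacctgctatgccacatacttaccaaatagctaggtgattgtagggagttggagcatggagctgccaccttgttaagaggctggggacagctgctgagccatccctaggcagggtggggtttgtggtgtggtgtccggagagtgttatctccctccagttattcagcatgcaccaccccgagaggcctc
Tfr2, chr5:137569590-137569839, plus strand: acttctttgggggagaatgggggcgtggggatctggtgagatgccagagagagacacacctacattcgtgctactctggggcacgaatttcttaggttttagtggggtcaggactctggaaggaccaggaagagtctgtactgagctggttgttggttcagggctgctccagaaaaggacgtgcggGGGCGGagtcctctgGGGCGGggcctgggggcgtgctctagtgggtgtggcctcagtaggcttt
The Cpox window held 1 GATA site, GATAAG on the opposite strand, at bases −87 to −82, counted from the transcript start that ends the window. The Tfr2 window held the GC box GGGCGG at −64 to −59 and at −49 to −44. The Steap3 window held none of the motifs. Both strands were searched for the GATA site GATAAG. They were also searched for the GC box GGGCGG and for the NRF2 motif TGACNNNGC. The search further took in TGTTCT, a part of the androgen and glucocorticoid receptor element, and the E-box CACGTG. The matches did not overlap each other in the 3 windows. Of 32851 windows of the same length in the table, 6.55% held GATAAG, 32.7% GGGCGG, 10.2% TGACNNNGC, 16.1% TGTTCT and 6.02% CACGTG. The GATA site and the GC box were added to the search after the sequences had been seen, and a match is a description and not a bound site.

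No haem or iron gene passed the genotype comparison. In limma's fit to the ratios of the 4 arrays, mutant over wild type, 0 of the 35 measured genes had an adjusted p under 0.05, where 0.0271% of all items did, and 1 had an unadjusted p under 0.05, where 4.46% of all items did. The log2 ratio was above 0 for 18 genes and below 0 for 17, and its median was 0.00048, against −0.0045 over all items. It lay under 0.2 in size for 31 of the 35, where 93% of all items did. In 0 of the 35 did the 4 mutant levels lie clear of the 4 wild-type levels, where 0.655% of all items did so. The ratio had the same sign on all 4 arrays for 4 genes, where 8.15% of all items did. These were Fech, Slc11a2 and Tmprss6 with higher mutant levels and Slc39a14 with lower ones. Over the genes measured the median range of the ratio from array to array was 0.488, against 0.479 over all items.

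**Figure D1:**
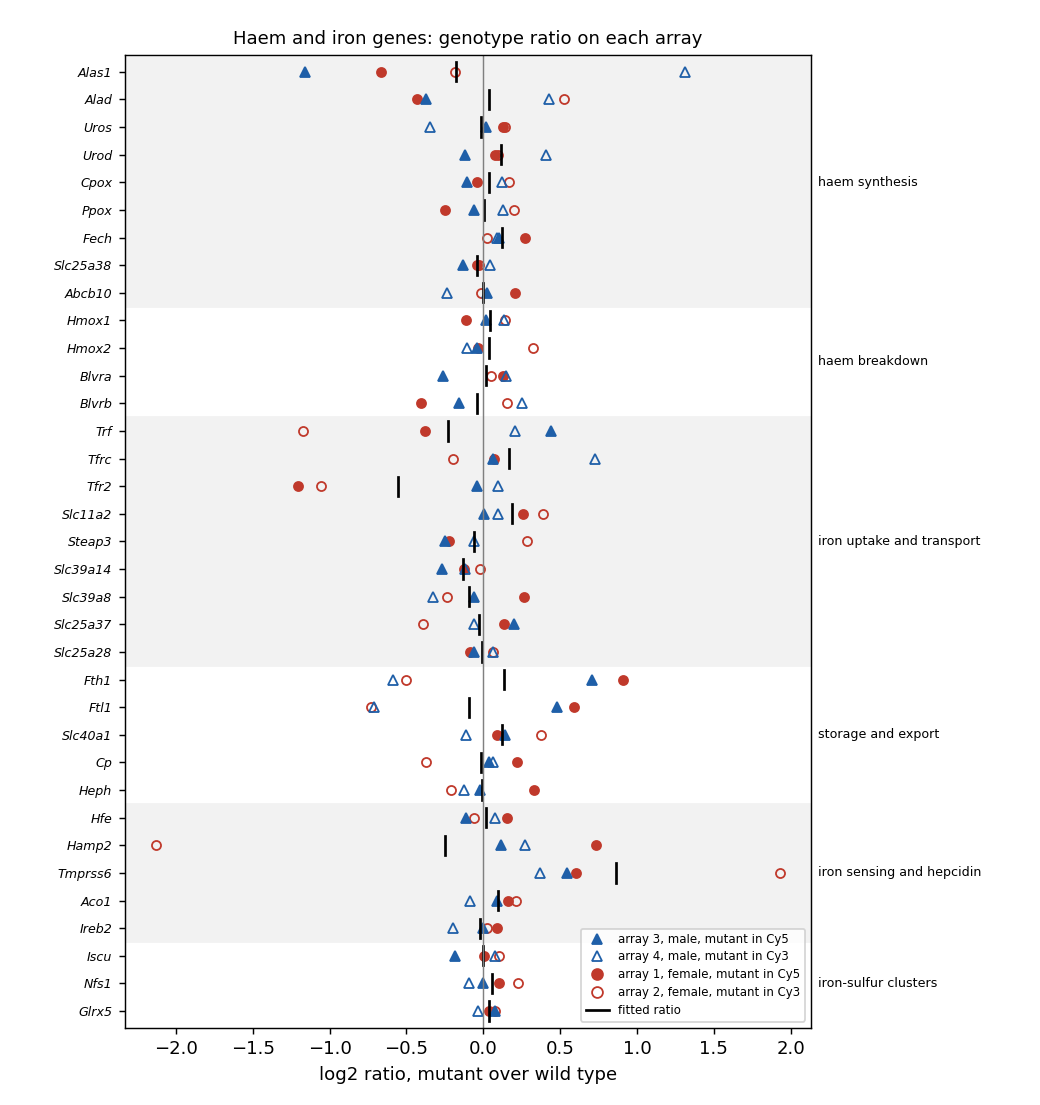
Log2 ratio of mutant over wild type (horizontal axis) of each of the 35 measured haem and iron genes on each of the 4 arrays, with triangles for male and circles for female pairs, filled where the mutant carried Cy5, and a bar for the fitted ratio; genes are grouped by role. Most fitted ratios lie within 0.2 of 0, while the points of Alas1, Tfr2, Trf, Hamp2 and Tmprss6 spread widely, and Fth1 and Ftl1 split by dye.

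Among the 9 haem synthesis genes, 5 had ratios above 0 and 4 below, from −0.17 to 0.12. Alas1, which encodes the rate-limiting first enzyme of the pathway in most tissues, had the widest spread. Its log2 intensity was 14.38, 14.62, 14.41 and 15.22 in mutants 1 to 4, against 15.04, 14.8, 15.57 and 13.91 in wild types 1 to 4. The highest and the lowest level of Alas1 were both from wild-type males, and the groups overlapped. The ratio was −0.67, −0.18, −1.16 and 1.31 on arrays 1 to 4, a range of 2.47, and the fitted ratio was −0.17 ± 0.238 (SE, n = 4 arrays, limma adjusted p = 0.983). Both ratios with the mutant in Cy5, on arrays 1 and 3, lay below both with it in Cy3. The dye term of Alas1 was −0.74 and did not pass (limma adjusted p = 0.143), and the part of dye in this spread was not tested further. Alad, Uros and Urod, enzymes of the cytosolic steps, had ratios of 0.04, −0.01 and 0.12. Cpox and Ppox, which act in mitochondria just before iron is inserted, had 0.03 and 0.0038, and Fech, the ferrochelatase that inserts it, had 0.12 ± 0.074 (adjusted p = 0.980) with array ratios of 0.27, 0.02, 0.10 and 0.09. The mitochondrial glycine carrier Slc25a38 and the transporter Abcb10, which are needed for haem synthesis in red cell precursors, had ratios of −0.04 and −0.0047.

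The 4 haem breakdown genes were closer still to 0. The haem oxygenases Hmox1 and Hmox2, the inducible and the constant form, had ratios of 0.04 and 0.03, and the biliverdin reductases Blvra and Blvrb had 0.02 and −0.04. The SE of these 4 ratios ran from 0.071 to 0.092.

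Of the 9 uptake and transport genes, 2 had ratios above 0 and 7 below, from −0.55 to 0.19. Tfr2, the second transferrin receptor, a sensor of iron-loaded transferrin in liver and red cell precursors, lies at chr5:137569822-137588081, 26.8 Mb from Pus1 on the same chromosome. Its log2 intensity was 7.24, 7.62, 7.45 and 7.33 in the mutants, against 8.45, 8.68, 7.49 and 7.23 in the wild types. Both wild-type females stood above the other 6 mice. The fitted ratio was −0.55 ± 0.247 (SE, n = 4 arrays, limma adjusted p = 0.980), and it ran from −0.84 to −0.26 over the arrays left out, nearest to 0 without array 1 or 2 of the females. Trf, the gene of transferrin, had 14.02, 13.34, 12.75 and 13.1 in the mutants, against 14.4, 14.51, 12.31 and 12.9 in the wild types. The groups overlapped, with the females of both genotypes above the males, and the fitted ratio of Trf was −0.23 ± 0.242 (adjusted p = 0.980). Slc11a2, which encodes the divalent metal transporter that carries iron out of endosomes, had 10.58, 10.31, 10.52 and 10.14 in the mutants, against 10.32, 9.92, 10.52 and 10.05 in the wild types. Its ratio was 0.19 ± 0.089 (adjusted p = 0.980), and a dimmer probe of the gene gave −0.02. The others lay within 0.2 of 0 at the probes used, with the main transferrin receptor Tfrc at 0.17 (0.36 at a second probe of similar brightness), the endosomal iron reductase Steap3 at −0.06, the zinc and iron importers Slc39a14 and Slc39a8 at −0.13 and −0.09, and the mitochondrial iron carriers Slc25a37 and Slc25a28 at −0.03 and −0.0053.

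For storage and export the ratios ran from −0.09 to 0.13. Fth1 and Ftl1, the ferritin heavy and light chains and the brightest members, had ratios of 0.91, −0.50, 0.71 and −0.58 and of 0.59, −0.73, 0.48 and −0.71 on arrays 1 to 4. For both genes the ratio was above 0 where the mutant carried Cy5 and below 0 where it carried Cy3. The dye term passed for both (limma adjusted p = 0.0343) and for Alad (adjusted p = 0.0465), 3 of 35 genes where 2.17% of all items passed, and the Ftl1 probe was saturated in Cy5 on 2 arrays. With the dye term fitted, the genotype ratio was 0.13 ± 0.076 for Fth1 and −0.09 ± 0.070 for Ftl1 (SE, n = 4 arrays). Slc40a1, which encodes the iron exporter ferroportin, had 0.12, and Cp and Heph, the copper oxidases that load exported iron onto transferrin, had −0.01 and −0.0058.

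The 6 genes of iron sensing and the hepcidin axis held the dimmest probes. Tmprss6, a membrane protease that lowers hepcidin production in liver, was the gene with an unadjusted p under 0.05. Its log2 intensity was 11.26, 12.37, 7.23 and 6.83 in the mutants, against 10.66, 10.43, 6.68 and 6.46 in the wild types. The mutant was the higher mouse on every array, by 0.60, 1.93, 0.55 and 0.37, while the groups as a whole overlapped because the level in females lay far above that in males. The fitted ratio was 0.86 ± 0.236 (SE, n = 4 arrays) and the limma adjusted p was 0.980. It was 0.47 without array 2, 1.25 without array 4 and 1.48 with Agilent's processed signals, none of them past the threshold. Of the 4 males only mutant 3 was well above background.
Hamp2, a mouse paralogue of the hepcidin gene Hamp, had 7.8, 7.11, 6.92 and 7.13 in the mutants, against 7.06, 9.24, 6.8 and 6.86 in the wild types. Wild-type female 2 stood alone above the other 7 mice, and the samples well above background were the 4 females and mutant 4. The fitted ratio of Hamp2 was −0.25 ± 0.365 (adjusted p = 0.983). Hamp itself was well above background in 1 mutant and 1 wild type and so was not measured. Its log2 intensity was 7.14, 6.6, 6.69 and 6.31 in the mutants, against 6.39, 8.58, 6.36 and 6.36 in the wild types. Wild-type female 2 was the highest for Hamp as well as for Hamp2, whose transcripts are similar, and cross-hybridization between their probes was not tested. Hamp with 2 samples well above background fell short of the 4 that the rule for a measured gene asks for. Hamp2 and Tmprss6 with 5 samples each lay just inside that rule, and the other 33 genes had all 8. Hfe, which works with transferrin receptors in hepcidin control, had a ratio of 0.01, and the iron regulatory proteins Aco1 and Ireb2, which bind iron-responsive elements in mRNAs such as those of ferritin, had 0.09 and −0.02.

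The 3 iron-sulfur genes had ratios of 0.00048 to 0.06. Iscu, the scaffold on which clusters are built, lies 3 Mb from Pus1 on chromosome 5. Its log2 intensity was 15.01, 15.09, 14.86 and 15.02 in the mutants, against 15.01, 14.98, 15.04 and 14.95 in the wild types. The groups overlapped fully, and the fitted ratio was 0.00048 ± 0.074 (SE, n = 4 arrays, limma adjusted p = 0.999). Nfs1, the cysteine desulfurase that supplies sulfur, had 0.06, and Glrx5, which passes clusters on, had 0.04.

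Other genes of these pathways, from lists fixed by function, gave 0 genotype calls as well. Of 28 further iron-sulfur assembly genes, all measured, 19 had ratios above 0 and 9 below, with a median of 0.04, against −0.0045 over all items. The smallest p among them was that of Hscb, a cochaperone of cluster transfer, which lies 0.06 Mb from Pus1. Its log2 intensity was 11.91, 11.85, 11.61 and 11.72 in the mutants, against 12.37, 12.43, 11.97 and 12.32 in the wild types. The mutant levels of Hscb all lay below the wild-type levels, and the ratio was −0.50 ± 0.070 (SE, n = 4 arrays, limma adjusted p = 0.385). Ndufab1, the mitochondrial acyl carrier protein, had 0.24 ± 0.075 (adjusted p = 0.980). Of 15 measured of 16 other haem genes, 4 had ratios above 0 and 11 below, with a median of −0.03. Among them Clpx, the mitochondrial unfoldase that acts on ALA synthase, had 0.18 ± 0.075, and Alas2, the ALA synthase of red cell precursors, had −0.35 ± 0.170 (both adjusted p = 0.980). The Alas2 ratio was −0.13 and 0.13 in the male pairs, against −0.52 and −0.87 in the female pairs. Alas2 is also among the erythroid markers described below, and the part of blood in its ratio was not tested. Of 23 measured of 29 other iron genes, 12 were above 0 and 11 below, with Lrp2, the endocytic receptor megalin, at 0.13. Of 13 measured of 14 targets of the oxidative stress factor NRF2, 5 were above 0 and 8 below, with Osgin1 at −0.29 ± 0.117 and the glutathione transferase Gstm1 at −0.17.

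The genotype ratio differed most between male and female pairs for the transferrin genes, though neither passed. The difference, male pairs minus female pairs, had an adjusted p under 0.05 for 0 of the 35 genes, where 0.14% of all items passed, and an unadjusted p under 0.05 for 2, Tfr2 and Trf, where 3.82% of all items did. The Tfr2 ratio was −0.04 and 0.10 in the male pairs, against −1.21 and −1.06 in the female pairs. Both female ratios were below both male ratios, and the difference was 1.16 ± 0.174 (SE, 2 male and 2 female arrays, limma adjusted p = 0.141). The Tfr2 probe was dim, at 7.23 to 7.49 in males. The lowest level well above background in a sample was 5.77 to 6.73. With processed signals the Tfr2 difference was 1.73 (limma adjusted p = 0.904). The Trf ratio was 0.44 and 0.20 in the male pairs, against −0.38 and −1.17 in the female pairs. The difference for Trf was 1.1 ± 0.204 (limma adjusted p = 0.276), and a dimmer Trf probe gave 1.32. With median normalization in place of loess both passed, Tfr2 with an adjusted p of 0.00218 and Trf with one of 0.00682. For Tmprss6 the difference was −0.81 ± 0.340, with an adjusted p above the threshold. In each sex the mutant was red on 1 array and green on the other, so the dye term absorbs much of the gap between both arrays of a sex, and these errors leave that gap out.

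Markers of fat and of urothelium moved with the same arrays, erythroid markers less clearly, and macrophage markers did not. For 15 measured of 16 fat markers the median ratio was 1.88 and 0.50 in the male pairs, against −1.56 and −1.75 in the female pairs, 9 of the 15 passed this comparison, and their summed log2 level was 15.79 to 17.71 in mutants and 15.29 to 18.62 in wild types. For 13 of 13 urothelium markers the median was 1.5 and −0.09 in the male pairs, against −1.69 and −1.42 in the female pairs, with summed levels of 13.55 to 14.69 in mutants and 14.08 to 14.76 in wild types. For 10 measured of 17 erythroid markers it was −0.04 and 0.12 in the male pairs, against −0.09 and −0.77 in the female pairs, with summed levels of 18.83 to 19.85 in mutants and 19.25 to 20.02 in wild types. Hba-a2, the brightest erythroid marker, weighs most in these sums, and its dye term passed (limma adjusted p = 0.0343). The Hba-a2 ratio split by dye, with 0.19, −1.16, 0.38 and −0.94 on arrays 1 to 4. Of the erythroid defining markers Gata1 and Ahsp were not measured. For 12 measured of 15 macrophage markers the median was −0.06 and 0.29 in the male pairs, against −0.14 and 0.28 in the female pairs. The part of any of these tissues in the Tfr2 and Trf differences was not tested. Among the further pathway genes, Hp, the gene of haptoglobin, which binds free haemoglobin, was the only call, with ratios of 1.83 and 0.75 in the male pairs, against −0.86 and −2.30 in the female pairs. The difference was 2.87 ± 0.187 (SE, limma adjusted p = 0.0104), in the direction of the fat markers, and the part of fat in it was not tested. In the other lists 0 genes passed, and those with the smallest p included the iron-sulfur gene Gfer (−0.42), the iron genes Lcn2 (0.75) and Neo1 (−0.22) and the NRF2 targets Gclm (−0.44) and G6pdx (0.45).

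**Figure D2:**
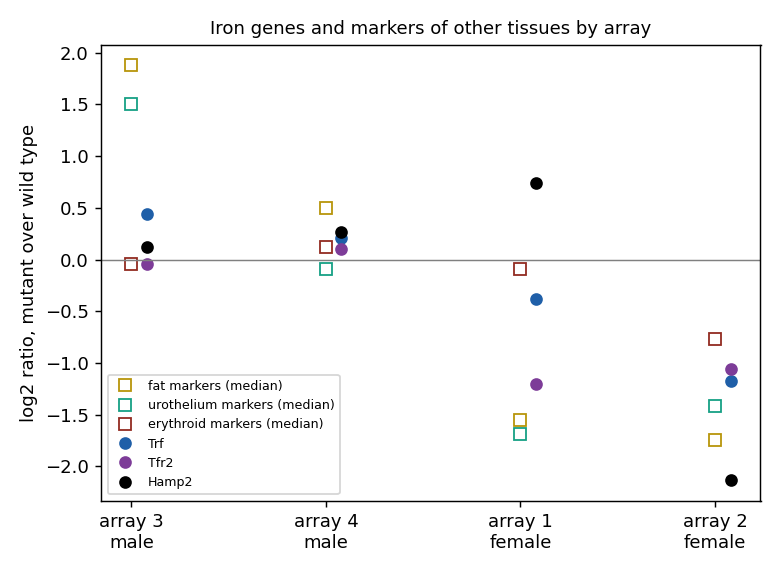
Log2 ratio of mutant over wild type (vertical axis) on each array, male arrays left of female arrays, with circles for Trf, Tfr2 and Hamp2 and squares for the median of the fat, urothelium and erythroid marker lists. On both female arrays Trf and Tfr2 lie below 0 together with the fat and urothelium medians, while on the male arrays they lie between −0.04 and 0.44.

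Between the sexes the haem and iron genes differed widely, at about the rate of all transcripts. Male arrays were compared with female arrays on the mean of the 2 mice of an array, so that n is 2 arrays per sex. Tmprss6 and Hamp2 were well above background in 4 females but in 1 male each, so they entered the list through the sex in which they were high. The counts over 33 genes leave them out. Of the 33 genes well above background in all 8 samples 13 passed at an adjusted p under 0.05, 5 higher and 8 lower in males, where 43.8% of all items passed, 18% higher and 25.8% lower. When all items had to be well above background in all 8 samples, 14 of the 33 passed, where 46.4% of those items did, and the median difference, male minus female, was −0.07 over the 33 and −0.12 over those items. Counts over all 35 measured genes hold Tmprss6 and Hamp2, and so lean towards lower levels in males by the way both entered. Of the 35 genes 15 passed, 5 higher and 10 lower. Without scaling between arrays the split was 2 higher and 10 lower, where 36.4% of all items passed. Leaving out a female array lowered the count for all items as well: 9 of the 35 passed without array 1, where 14.2% of all items did, and 7 without array 2, where 11.5% did. The levels of the 4 males and 4 females did not overlap for 12 of the 33, where 43% of all items did not.

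**Figure D3:**
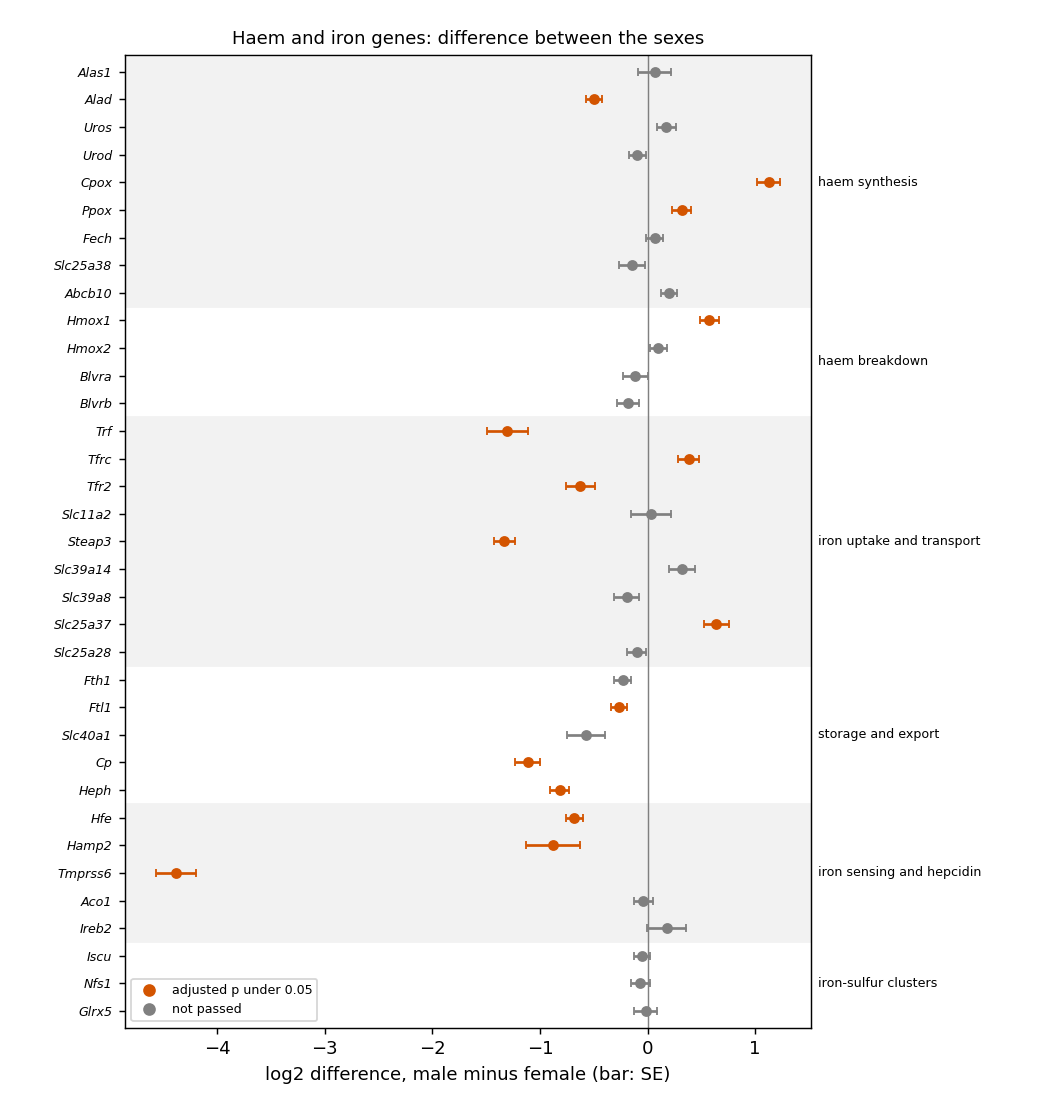
Log2 difference of male minus female arrays (horizontal axis) for each of the 35 measured genes, grouped by role, with the SE as a bar and orange points where the adjusted p was under 0.05. Tmprss6 lies farthest from 0 at −4.38, although it, like Hamp2, was well above background in 1 male only, Cpox is the highest at 1.13, and all 5 storage and export genes lie below 0.

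In haem synthesis, Cpox and Ppox were higher in males and Alad was lower, 3 of 9 genes, where 43.8% of all items passed. Cpox, the coproporphyrinogen oxidase gene whose promoter is shown above, had log2 intensities of 12.67 and 12.59 in mutant males and 12.78 and 12.47 in wild-type males, against 11.42 and 11.65 in mutant females and 11.46 and 11.48 in wild-type females. The sexes did not overlap, and the male mean of 12.63 ± 0.133 stood 2.18-fold above the female mean of 11.5 ± 0.101 (SD, n = 4 mice each; log2 difference 1.13 ± 0.105 SE, limma adjusted p = 0.00253). Ppox, which encodes the next enzyme, was higher by 0.32 ± 0.088 (adjusted p = 0.0383), and Alad, which encodes an early enzyme of the pathway, fell by 0.50 ± 0.074 in males (adjusted p = 0.00778). Without array 1 or array 2, both of females, Alad missed the threshold at −0.50 in each case (adjusted p = 0.0609 and 0.0646), and Ppox missed it whichever array was left out (0.24 to 0.40, adjusted p = 0.0722 to 0.188), with no filter on dim probes (adjusted p = 0.0728) and with no scaling between arrays (0.15, adjusted p = 0.562). Alas1 and Fech had differences of 0.07 each, with errors of 0.152 and 0.078.

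In haem breakdown 1 of 4 genes passed, where 43.8% of all items did, and it was Hmox1, the inducible haem oxygenase. Its level was 11.53 and 11.49 in mutant males and 11.51 and 11.35 in wild-type males, against 10.77 and 11.03 in mutant females and 10.89 and 10.89 in wild-type females. The male values all lay above the female values, by 0.57 ± 0.090 on average (SE, limma adjusted p = 0.00885), but a dimmer Hmox1 probe gave −0.23. The call was lost without array 1 (0.51, adjusted p = 0.0652) and without array 2 (0.64, adjusted p = 0.0507), as well as with the mean over both probes (0.17, adjusted p = 0.14) and with no scaling between arrays (0.39, adjusted p = 0.083).

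**Figure D4:**
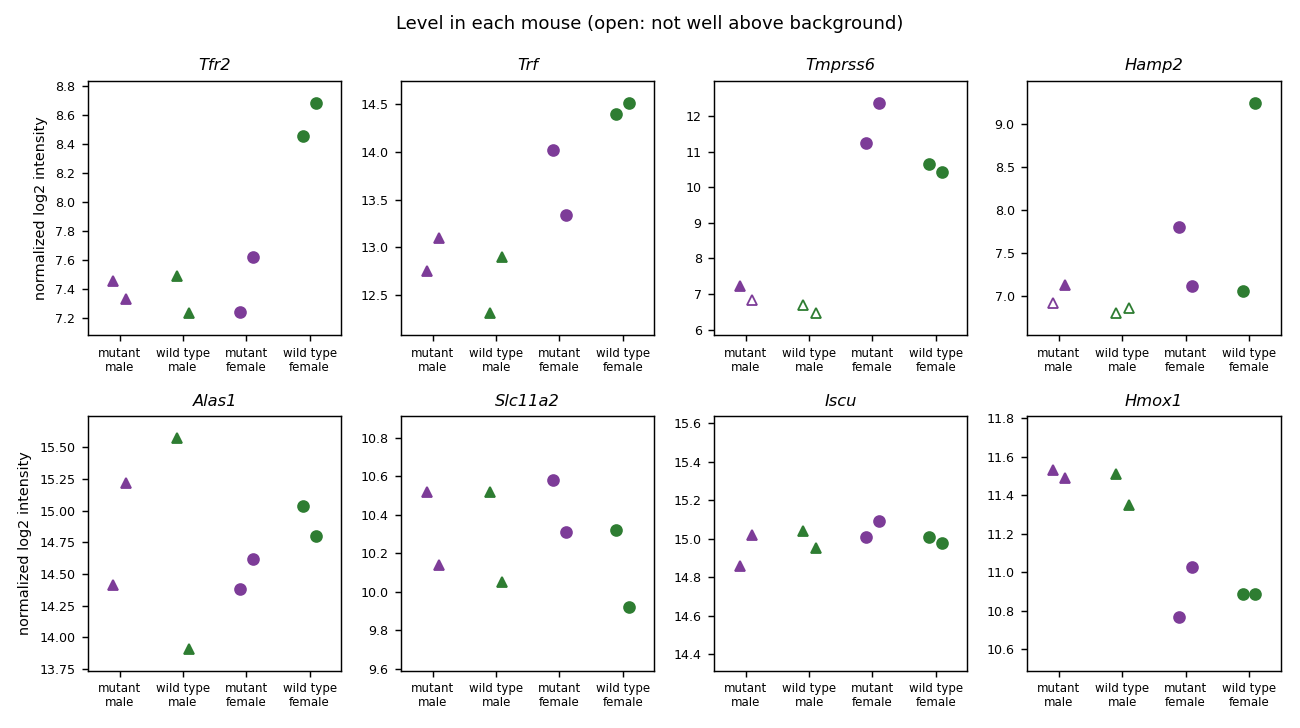
Normalized log2 intensity (vertical axis) of 8 haem and iron genes in each of the 8 mice, by genotype and sex, with purple for mutants, green for wild types, triangles for males, circles for females and open symbols where the sample was not well above background. The sexes are far apart for Tmprss6 and apart for Trf and Hmox1, wild-type females stand out for Tfr2, and 1 wild-type female for Hamp2.

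In uptake and transport 2 of 9 genes were higher and 3 lower in males, where 18% and 25.8% of all items were. Steap3 had 8.88 and 9.0 in mutant males and 9.12 and 9.06 in wild-type males, against 10.14 and 10.59 in mutant females and 10.36 and 10.3 in wild-type females. The sexes were clearly apart, with means of 9.02 ± 0.106 in males and 10.35 ± 0.187 in females (SD, n = 4 mice each). Steap3 was 2.51-fold lower in males (log2 difference −1.33 ± 0.097 SE, limma adjusted p = 0.00135), and its second probe gave −1.34. Trf, whose levels are given above, had means of 12.77 ± 0.336 in males and 14.07 ± 0.530 in females (SD, n = 4 mice each). It was 2.47-fold lower in males (log2 difference −1.30 ± 0.188 SE, adjusted p = 0.00728), and all 4 males lay below all 4 females. Without array 1 its adjusted p was 0.0544 at −1.16. Tfr2 was lower in males (−0.62 ± 0.135, adjusted p = 0.0202), although the sexes overlapped, since mutant female 1 at 7.24 lay among the males. Tfr2 missed the threshold without array 2 (−0.47, adjusted p = 0.0971) and without array 4 (−0.53, adjusted p = 0.0516). It also missed it with the 8 mice taken as unpaired, with no replicate block (adjusted p = 0.0631), and in limma's separate-channel fit (adjusted p = 0.0966). The mitochondrial importer Slc25a37 (mitoferrin 1) was higher in males by 0.64 ± 0.114 (adjusted p = 0.012), with 0.15 at its other probe. Tfrc was higher by 0.38 ± 0.098 (adjusted p = 0.0318), with 0.02 at its other probe and overlapping sexes. Slc25a37 was not called without array 1 (0.71, adjusted p = 0.056) or array 2 (0.56, adjusted p = 0.0834), nor Tfrc without array 1, 2 or 3 (0.28 to 0.40, adjusted p = 0.0721 to 0.153). The Tfrc call was also lost with no replicate block (adjusted p = 0.0601), in the separate-channel fit (0.0912), with no filter on dim probes (0.059), with the mean over both probes (0.20, adjusted p = 0.119) and with no scaling between arrays (0.33, adjusted p = 0.146).

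All 5 storage and export genes had lower mean levels in males, where 13287 of 22122 items did. Their median difference was −0.57, against −0.10 over all items. Of the 5 genes 3 passed, where 25.8% of all items passed as lower in males. The mean levels of all 5 genes were lower in males under all alternatives tried. All 5 passed with no replicate block and in the separate-channel fit, and 4 passed where every item had to be well above background in all 8 samples. With offset 16 and with no filter on dim probes 2 of the 5 passed. Cp had 11.03 and 11.32 in mutant males and 10.99 and 11.25 in wild-type males, against 12.41 and 12.04 in mutant females and 12.19 and 12.41 in wild-type females. The sexes did not overlap, and the difference was −1.11 ± 0.116 (SE, limma adjusted p = 0.00338), but a far dimmer Cp probe gave −0.11. Heph had 9.62 and 9.63 in mutant males and 9.64 and 9.75 in wild-type males, against 10.56 and 10.46 in mutant females and 10.23 and 10.66 in wild-type females. The 4 males lay close together below every female, and the difference was −0.82 ± 0.092 (adjusted p = 0.00413). Ftl1 had −0.27 ± 0.077 (adjusted p = 0.0436) at the probe that was saturated in Cy5 on 2 arrays and −0.63 at a dimmer probe, so the size of its difference is uncertain. The Ftl1 call was lost whichever array was left out (adjusted p = 0.0638 to 0.193), with offset 16 (0.0541), with no filter on dim probes (0.0867) and with no scaling between arrays (0.121). Fth1 at −0.23 ± 0.082 missed the threshold (adjusted p = 0.073), but passed with no replicate block (0.0325) and in the separate-channel fit (0.0459). Slc40a1, with a difference of −0.57 ± 0.178, also missed it (adjusted p = 0.0522), though its 4 male levels, 11.51 to 11.82, lay below its 4 female levels, 11.96 to 12.67. Slc40a1 passed without array 1 (−0.81, adjusted p = 0.0422), with all 8 samples required well above background (0.0421), with no replicate block (0.0199), in the separate-channel fit (0.0245) and with no scaling between arrays (−0.78, 0.000189).

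In iron sensing Hfe was the 1 call, lower in males, among the 3 genes well above background in all 8 samples. Of all items 25.8% passed as lower in males. Hfe had 9.98 and 10.1 in mutant males and 10.09 and 10.02 in wild-type males, against 10.77 and 10.73 in mutant females and 10.62 and 10.78 in wild-type females. The spread within a sex was small beside the gap between the sexes, and the difference was −0.68 ± 0.076 (adjusted p = 0.00404). Aco1 and Ireb2 had −0.04 and 0.18. Tmprss6 had a mean of 6.80 ± 0.325 in males and 11.18 ± 0.864 in females (SD, n = 4 mice each), and all 4 females lay far above all 4 males. Since 3 of the 4 males were not well above background, its difference of −4.38 rests on signal near the floor, and it was −6.51 with processed signals and −6.55 in the deposited value table. Hamp2, with its levels above, had a difference of −0.88, which ran from −1.25 to −0.51 over the arrays left out. The 3 iron-sulfur genes had differences of −0.07 to −0.02, and none passed.

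Markers of blood differed between the sexes too, as did those of macrophages, cells that recycle iron. Among all items 25.8% passed as lower and 18% as higher in males. Of 12 measured of 15 macrophage markers 8 were lower in males and 0 higher, and Cd68 and Cd163 were not measured. The summed log2 level of the macrophage markers was 14.27 to 14.33 in males and 14.55 to 14.79 in females. Of the 10 erythroid markers 5 were lower and 1 higher, with a summed level of 18.83 to 19.48 in males and 18.85 to 20.02 in females. That sum rests most on Hba-a2, whose ratio split by dye as given above. Of the 15 fat markers 0 passed. The part of these cells in the differences of Slc40a1, Hmox1, Trf or the other genes was not tested.

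The other pathway genes differed between the sexes in both directions. Of the 23 measured other iron genes 12 were lower in males and 0 higher, where 25.8% and 18% of all items were. The largest of these were Steap1, a metal reductase related to Steap3 (−1.07 ± 0.088), Bmp2, a growth factor of the hepcidin pathway (−0.98 ± 0.082), and Ncoa4, the receptor that delivers ferritin to lysosomes (−0.58 ± 0.080). Cubn and Lrp2, the endocytic receptors cubilin and megalin that take up filtered transferrin in the proximal tubule, were lower by about the same amount (−0.58 and −0.57). Epas1, Pcbp1, Pcbp2, Steap2, Cdc14a, Smad6 and Smad7 were lower as well, with differences of −0.54 to −0.29. Of the other haem genes 4 of 15 were lower and 0 higher, the haem transporters Flvcr2 (−1.48 ± 0.197) and Flvcr1 (−0.69 ± 0.098), the haem-binding Pgrmc1 (−0.59 ± 0.075) and Lrp1, the receptor of haemopexin with haem (−0.50 ± 0.124). Of the 28 iron-sulfur assembly genes 3 were higher in males, Hspa9, Ciapin1 and Ndor1 (0.35 to 0.43), and 4 lower, among them Nubpl, Bola3 and Glrx3 (−0.40 to −0.29). The ratio of mutant over wild type at the bright Ndor1 probe split by dye, with 1.2, −1.44, 1.08 and −0.98 on arrays 1 to 4. The dye term of Ndor1 passed (limma adjusted p = 0.0343). Of the 13 NRF2 targets Me1, Gclc and Txnrd1 were higher (0.82, 0.70 and 0.44), and the factor's own gene Nfe2l2, Gsta3 and Gstm1 were lower (−0.55, −0.46 and −0.36). Each of these had a limma adjusted p under 0.05, between 0.00184 and 0.0465.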

How the data were processed

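Total RNA of frozen kidney sections from 8 mice, 200 ng each, was labelled and hybridised in pairs to 4 arrays on 1 slide with 1 scan. Agilent Feature Extraction 10.7.3.1 made the deposited intensity values, per the file headers. For every spot they give a median signal, a median local background and a processed signal with background and dye already adjusted. A deposited value table holds log2 values, which match the log2 processed signal centred on each probe's median over the 8 samples, with equal column means. Its scaling and the authors' tests are not stated in the sources used here.

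Here the median signals were background-corrected by normexp (offset 50) and normalized by loess with limma 3.58.1 in R 4.3.3. The plan named the mean signal, which the files do not hold. Control spots (3671 of 62976) and 191 to 252 outlier spots per array were left out, and channel levels were scaled by Aquantile. Probes were named through RefSeq accessions (27509 probes of 20887 genes). Probes well above background in at least 4 of 8 samples were kept, and the brightest probe stood for a gene. Cy3 channels had a median spot signal of 97 to 105 (background 51 to 57) and Cy5 channels one of 220 to 245.5 (background 141 to 144), with 26919 to 30529 probes a sample well above background. The number of arrays limits the precision.

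Genotype was tested with limma on the 4 log2 ratios with a dye term (2 residual degrees of freedom, prior 3.97; median SE 0.0812). Sex by genotype added the difference between male and female pairs (1 residual degree of freedom, prior 5.65; median SE 0.181). Sex was tested on array means, 2 against 2 (2 residual degrees of freedom, prior 3.02; median SE 0.0919). All p-values are 2-sided, with Benjamini-Hochberg adjustment over 22122 items and a threshold of 0.05. The pairing comes from the shared array. Deviations of same-numbered samples from their genotype means correlated by 0.695, 0.684, 0.680 and 0.782, which the shared sex alone raises. Within a sex both arrays give the same value by construction, −0.267 for females and 0.073 for males. The 2 mice of an array always carried different dyes, so these values do not measure the pairing alone. The fits were tested on simulated data.

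Members and lists were chosen with earlier results of these data known. Named with all values are members past 0.05 (unadjusted for genotype), the 6 largest genotype ratios, members on chromosome 5 and the 8 largest passing sex differences. Tfr2 and Trf under sex by genotype, Hmox1, Fth1, Ftl1 and Hamp were added after their values were seen. From the other lists, passing genes or the 2 with the smallest p are named; a few of these are not reported here.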

Additional observations from a re-analysis of the deposited data

Results flagged for a closer look

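The Tmprss6 ratio of mutant over wild type was 1.93 on array 2, of females, far from the 0.37 to 0.60 of the other 3 arrays, and the gap made up 0.85 of the whole range. Hamp2 had a log2 intensity of 9.24 in wild-type female 2, far from the 6.8 to 7.06 of the other 3 wild types, and the gap made up 0.893 of the range. In all 36 groups of 4 values were examined in this way, and 2 stood apart. For 4 independent values from 1 normal distribution chance sets about 1 in 20 groups apart. That rate does not hold for these groups, which mixed sexes and dyes. Levels and ratios of a gene also shared the same mice, and the genes were partly picked for large differences. The Hp ratio differed between male and female pairs by 2.87 on the log2 scale (limma adjusted p = 0.0104), in a test of the difference itself.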

How the results depend on the processing

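Array number sets the limit here, with 2 arrays a sex. No member passed for genotype in any of the 14 alternatives. These were other background correction, normalization, dim-probe filter or probe choice, no dye term, no replicate block, each array left out, and the deposited value table. Over the whole table the genotype count ran from 0 to 10. For sex by genotype, median normalization in place of loess gave 2 members, Tfr2 (1.23, adjusted p = 0.00218) and Trf (1.15, 0.00682), and 0 in the other 9 alternatives; leaving out an array was not possible there, since no residual degrees of freedom would be left. For sex the count of members ran from 7 to 15 over 15 alternatives. It was 9 without replicate 1 and 7 without replicate 2, from 7 to 12 over the arrays left out, while calls over all items came to 14.2%, 11.5%, 38.6% and 38.7% without replicates 1 to 4, against 43.8%. With no replicate block it was 15, of which 12 were shared. These sex counts are over all measured members, with Tmprss6 and Hamp2 among them. Cpox, Steap3, Cp, Heph and Hfe passed in all 15 alternatives, and Trf in all but the one without replicate 1 (−1.16, adjusted p = 0.0544). Pus1 missed the threshold with processed signals (−3.87, 0.134) and the deposited value table (−3.88, 0.22). Genotype ratios that changed sign, with no call, were Alas1 (−0.549 to 0.199 over the arrays left out), Trf (−0.571 to 0.118), Hamp2 (−0.851 to 0.349, and 0.0134 in the value table), all above 0 without replicate 2, and Iscu (−0.0458 to 0.0468 over the arrays left out, −0.000617 with offset 16, −0.024 with processed signals, −0.0444 with median normalization and −0.0325 in the value table). The value table was added after seeing the data. The cause of these changes was not tested. Hamp2 and Tmprss6 had no value where all 8 samples had to be well above background.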
